A study of Mus musculus with 7 samples.

Results

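Ebf1- and Ebf2-expressing mesenchyme of the neural crest lineage at E9.5, proposed to be the proximal part of the first pharyngeal arch (PA1), is described here in 1913 cells of 65862 barcodes in the series. A cell was a member when it had at least 1000 detected genes and at most 10% mitochondrial UMIs (unique molecular identifiers, 1 per captured transcript), at least 2 UMIs of Ebf1 and Ebf2 together, at least 2 of Twist1, Prrx1 and Prrx2 together, fewer than 2 of Barx1, and 0 of Hoxa2, Hoxa3, Hoxb3, Hoxd3, Sox10 and Foxf1. These cells are called Ebf gate cells. The gate held 848 of 8612 kept cells in the control library and 1065 of 10577 in the Tbx1 null library. Members were thus chosen by measured UMIs of these 12 genes, so the levels of those genes describe the choice and support nothing. Every contrast of gate cells with other cells is given as a description.

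The study profiled neural crest cells (NCCs) of mouse embryos on a mixed background (strain label Swiss-Webster) with and without Tbx1, a T-box transcription factor of the tissues next to these cells, by droplet single-cell RNA sequencing of 3′ transcript ends. Control embryos were Wnt1-Cre/+;ROSA-EGFPf/+. The null library is titled Tbx1null, while the genotype field of its label reads Wnt1-Cre/+;Tbx1+/-;ROSA-EGFPf/+. The study's own list of libraries gives it as Tbx1-/-, as its title does, and it is called Tbx1 null here. In both, Wnt1-Cre switches on EGFP in the crest lineage and in the dorsal neural tube from which it leaves, the pharyngeal apparatus with heart was dissected without the head, and EGFP-positive, DAPI-negative cells were sorted from a pool of embryos. Effects in these cells and effects of their surroundings cannot be told apart in such embryos. First-arch NCCs express no Hox genes. Dlx1 and Dlx2 are known from the whole arch and Dlx5 and Dlx6 from its distal, mandibular part, where endothelin and BMP signals act, while Lhx8 is a LIM homeodomain factor of the oral and maxillary mesenchyme. Ebf1 and Ebf2 are helix-loop-helix factors of the COE family, with roles in mesenchymal, adipocyte and B cell development.

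There was 1 library per genotype at E9.5, so no difference between genotypes could be tested, no p-value is given, and intervals (95%) cover counting error only. The control library was made with version 3.1 of the 10x kit and the null library with version 3; kit, pool and genotype cannot be told apart. The libraries held 203853100 and 234844769 UMIs, with a median of 23071 and 21176 per kept cell. Xist had 6 UMIs in all kept control cells and 88744 in null cells, and Eif2s3y, on the Y chromosome, was at 32.5 and 15.4 per 1000000 UMIs of gate cells, so the pools differed in sex mix. Tbx1 itself had 212 UMIs in 119 kept control cells and 153 in 65 null cells, 1.04 and 0.654 per 1000000 UMIs, and at E10.5 it was at 4.58 and 5.79 in the controls and 2.91 and 2.92 in the null libraries. The 3′ tags need not lie in the deleted part, so these reads do not check the label. The 2 libraries shared 27 barcodes, none of them in the gate in both.

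The share of kept cells in the gate was 9.85% in control (95% Clopper-Pearson interval 9.23 to 10.5) and 10.1% in the null library (9.50 to 10.7), so the intervals overlap. With each cell thinned to 10000 UMIs before the rule was applied, the share was 6.94% in control (6.4 to 7.51) and 8.36% in null (7.82 to 8.94). Those intervals do not overlap, but thinning also changed the members. Of the thinned gate, 419 of 571 control cells and 532 of 797 null cells were members at full depth. The others passed only after thinning, so shares before and after thinning count different cells. Barx1 cells, which had at least 2 Barx1 UMIs and passed the other limits apart from the one on Ebf1 and Ebf2, made up 13.1% and 18.8% of kept cells. Ebf1 and Ebf2 together reached 2 UMIs in 2300 control and 3158 null cells, and the 848 and 1065 members are what remained after the other limits. With the limits applied in the order mesenchymal genes, Hox, Sox10, Foxf1 and Barx1, the largest loss was to the Hox limit, from 2050 to 1497 cells in control and from 2952 to 2175 in null. Just inside the Ebf limit lay 210 control and 283 null cells with exactly 2 UMIs, and just outside it 252 and 332 cells with 1. At the Barx1 limit, 108 control and 189 null members had 1 Barx1 UMI, and 56 and 111 cells were kept out by having exactly 2. Members had a median of 4 Ebf1 and Ebf2 UMIs in each library. Both genes were seen in 63.8% of control and 65.2% of null members, Ebf1 alone in 27.8% and 26.6%, and Ebf2 alone in 8.37% and 8.26%. Gate cells had depths near those of the libraries, with a median of 23805 UMIs and 4355 genes in control and 22576 UMIs and 4239 genes in null.

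Levels below are UMIs of a gene summed over the cells of a group in 1 library, per 1000000 UMIs of that group after TMM scaling (CPM), and compare 1 gene between groups, never genes with each other. The splits of thinned gate cells by Lhx8 and by Dlx5 or Dlx6 are given without TMM scaling. Of the markers, Ebf1 (chr11:44617317-45008091, mm10) was at 114 in control and 118 in null gate cells and Ebf2 (chr14:67233292-67430918) at 60.8 and 66.2, as the rule requires. Hapln1, a link protein of the hyaluronan matrix (chr13:89539796-89611652), was at 44.5 and 49.1 in gate cells, against 25.2 and 24.7 in Barx1 cells and 17.0 and 20.1 in Hoxa2 cells (at least 1 Hoxa2 UMI, 0 of Hoxa3, Hoxb3 and Hoxd3, and the limits on mesenchymal genes, Sox10 and Foxf1). Lhx8 (chr3:154306294-154330659) was at 17.3 and 35.8 in gate cells. In Barx1 cells it was at 12.5 and 33.0, so it set gate cells apart from Hoxa2 cells, at 5.45 and 12.1, more than from Barx1 cells. Lhx6, a related factor also chosen as a first arch and maxillary marker, had 4 and 2 UMIs in all, so this marker did not go with the label. Of genes the rule did not read, Hoxb2 was at 6.69 and 6.25 in gate cells and at 82.9 and 82.2 in Hoxa2 cells.

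The Dlx genes followed the proximal side of the label. Dlx1 was at 55.9 and 65.4 in gate cells and at 50.7 and 61.0 in Barx1 cells, and Dlx2 at 105 and 111 against 94.4 and 103. Dlx5 was at 5.86 and 14.3 in gate cells but at 152 and 145 in Barx1 cells, and Dlx6 at 3.18 and 6.25 against 81.3 and 71.1. Dlx3 and Dlx4, the other pair of distal Dlx genes, were at 0.342 and 0.452 and at 0 and 0.123. Hand2, a factor of the distal arch, was at 3.52 and 4.81 against 43.0 and 41.7. Gate cells were thus low in the distal set in both libraries while holding the levels of Dlx1 and Dlx2. Lmx1b, known from the mesenchyme around the eye, was at 0.342 and 0.123, whereas Alx1, a frontonasal factor, was at 13.4 and 18.3 against 5.20 and 6.26 in Barx1 cells. The limit on Barx1 itself keeps many distal cells out, so the low distal levels follow in part from the rule. Summed over the whole list of 9 periocular and cranial mesenchyme genes, gate cells had 59.5 and 66.2 CPM against 46.3 and 45.5 in all other kept cells, so the sum was higher in the gate in both libraries. Most of it was Foxc1, a forkhead factor of head mesenchyme, at 31.5 and 37.6 in gate cells and 20.3 and 18.0 in all other kept cells. The Dlx and Hand2 levels did not go against the label, while Lhx6, chosen as a first arch marker, was nearly absent. Whether a part of the gate came from outside PA1 was not tested.

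**Figure D1:**
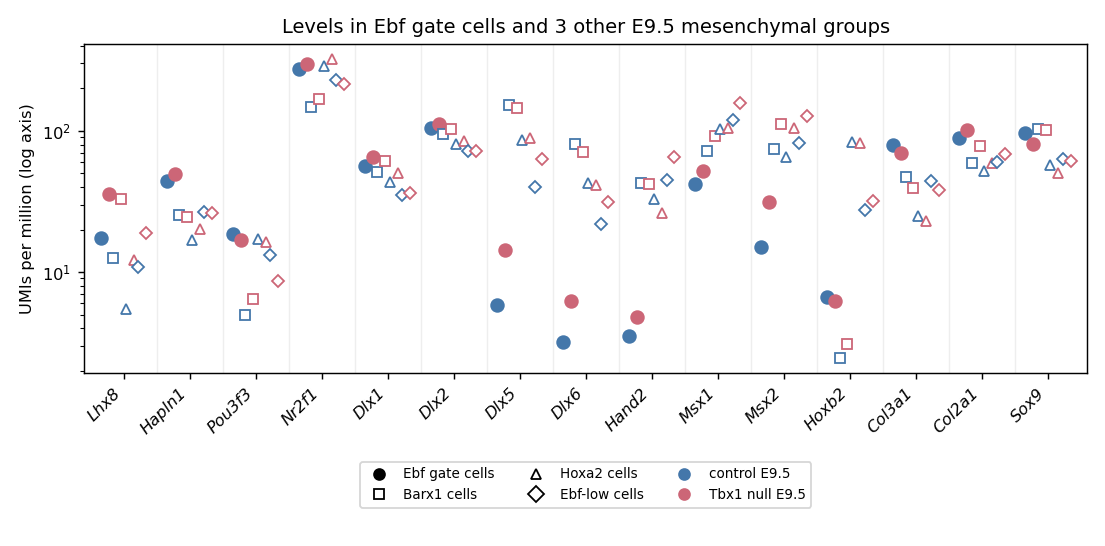
CPM (log axis) of 15 genes in Ebf gate cells (filled circles) and in Barx1, Hoxa2 and Ebf-low cells (open symbols; Ebf-low cells meet the gate's limits except for having fewer than 2 Ebf1 and Ebf2 UMIs) of the control (blue) and Tbx1 null (red) library; compare symbols within a gene. Dlx5, at 5.86 and 14.3, and Dlx6, at 3.18 and 6.25, lie far below the other groups in gate cells, and Hapln1, at 44.5 and 49.1, lies above them.

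Marker genes of other cell types were summed in gate cells and in all other kept cells, which hold the neural-like and Sox10-positive cells that the rule removes. Summed over 8 neural genes, gate cells had 31.6 and 31.4 CPM against 185 and 144 in all other kept cells. Migratory and glial crest genes (5, Sox10 at 0 by rule) summed to 69.7 and 77.7 against 241 and 222, with Fabp7 at 44.2 and 50.0 in gate cells and Foxd3 at 0.293 and 0.0822. Fabp7 was at 16.1 and 17.2 in Barx1 cells and at 116 and 118 in Hoxa2 cells. Both crest genes of the list that reached 20 CPM, Fabp7 among them, were at least 1.5-fold higher in gate than in Barx1 cells in both libraries. Of all genes at that level, 0.795% were. Smooth muscle genes (5) summed to 36.7 and 29.8 against 50.8 and 42.9, and mesoderm and muscle genes (7) to 5.91 and 6.17 against 7.70 and 9.33, closer to the other cells than the neural and crest sums were. Epithelial genes (5) summed to 12.4 and 13.4 against 22.9 and 22.5 and blood genes (6) to 0.880 and 0.781 against 0.104 and 48.5. Nkx2-5, Gata1, Hba-a1 and Hba-a2 had no gate UMI in either library. Endothelial genes (5) summed to 6.74 and 2.51 against 1.25 and 1.57, so their sum was higher in the gate in both libraries. In control, 1 gate cell held all 35 UMIs of Cdh5, and in null most of the sum was Emcn, at 1.69 against 0.599. Of 11 other Hox genes, none reached 20 CPM and the sum was 7.53 and 7.11, nearly all Hoxb2.

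Set against all other kept cells, the genes at 50 CPM or more that stood highest in gate cells in both libraries were of the matrix and of the Dlx family. Col3a1, a fibrillar collagen, was at 79.0 and 69.3 in gate cells and 23.8 and 25.2 in the others (log2 ratio 1.71 in control and 1.44 in null). Col23a1 was at 78.9 and 79.5 against 36.2 in each library, Col9a1 at 69.0 and 65.7 against 26.5 and 34.0, Col2a1 at 88.3 and 101 against 45.6 and 58.3, and Bgn, the proteoglycan biglycan, at 55.5 and 70.3 against 26.3 and 35.2. Dlx1 (log2 ratio 0.97 and 0.78), Dlx2 (0.81 and 0.68) and Cdh11, a mesenchymal cadherin (0.96 and 0.68), were among the same 15 genes. Pgm1, Phlda1, Sh3bp5, Dnajc1, Fam3c and Hopx were also among them. Fewer of the 15 set the gate apart from the nearest mesenchyme. In both libraries 3 (Col3a1, Col23a1 and Phlda1) were at least 1.5-fold higher than in Barx1 cells (against 0.795% of all genes). Against Hoxa2 cells 7 were (0.526% of all genes), and against Ebf-low cells 4 (0.441%). The 15 were picked over a group that holds these cells, so the counts follow in part from that choice. Cdh11 was 0.37 and 0.23 higher on the log2 scale than in Barx1 cells, and Bgn 0.21 and 0.30 higher than in Hoxa2 cells. Several markers stood further apart at levels under the 50 CPM required for naming, such as Hapln1 (log2 ratio 1.58 and 1.52). The other kept cells include neural-like and Sox10-positive cells, which the rule leaves out of the gate.

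Barx1 cells are a closer comparison, since both groups are mesenchyme without a UMI of Hoxa2, Hoxa3, Hoxb3 or Hoxd3. Other Hox genes were not limited, and Hoxb2 was at 2.46 and 3.10 in Barx1 cells against 6.69 and 6.25 in gate cells. Of 4777 genes at 20 CPM or more, 38 (0.795%) were at least 1.5-fold higher in gate cells in both libraries and 39 (0.816%) at least 1.5-fold lower. Among those at 50 or more, the widest gaps on the high side were Pdlim1 (54.4 and 60.5 in gate cells, 22.0 and 24.5 in Barx1 cells), Phlda1 (114 and 120 against 39.6 and 54.4) and Ptn, the growth factor pleiotrophin (359 and 358 against 158 and 186). Sfrp1, a secreted Wnt antagonist, was at 77.5 and 59.4 against 40.3 and 31.2, and Nr2f1, an orphan nuclear receptor of the maxillary arch, at 275 and 299 against 147 and 167. In Hoxa2 cells Nr2f1 was at 287 and 323 and in all other kept cells at 266 and 262, so it did not set the gate apart from those. Tmsb4x, Col3a1, Cotl1, Col23a1 and Pkdcc completed the 10. On the low side stood Dlx6os1, the RNA transcribed antisense to Dlx6 (0.391 and 1.32 against 57.1 and 59.4), Dlx6, Dlx5, Dlk1 (9.33 and 14.9 against 59.9 and 79.5), Wnt5a (12.1 and 12.7 against 64.3 and 54.2), Stk26, Msx2 (15 and 31.5 against 74.3 and 111), Cthrc1, Meg3 and the smooth muscle LIM protein Csrp2 (324 and 360 against 873 and 790). Of the first arch and maxillary list, 4 of 10 genes at that level were higher than in Barx1 cells and 1 was lower, of the distal arch list 0 and 4 of 4, and of the matrix list 3 and 2 of 12. Pou3f3, a maxillary POU factor, was at 18.6 and 16.8 against 4.99 and 6.47, but at 17.0 and 16.3 in Hoxa2 cells. Its log2 ratio over Barx1 cells was 1.80 in control and 1.31 in null, and 3.10 and 2.98 over those Barx1 cells with fewer than 2 Ebf1 and Ebf2 UMIs. Against Hoxa2 cells the counts were 25 (0.526%) higher and 45 (0.946%) lower of 4757, and against Ebf-low cells, which meet the limits of the gate except for having fewer than 2 Ebf1 and Ebf2 UMIs, 21 (0.441%) and 59 (1.24%) of 4764.

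Tbx1 null and control gate cells were close over most genes. Of 4974 genes at 20 CPM or more in 1 of the libraries, 35 (0.704%) were at least 1.5-fold higher in null and 113 (2.27%) at least 1.5-fold lower, 148 (2.98%) in all, with a median log2 ratio of 0.02. In Barx1 cells of the same libraries the counts were 40 (0.805%) and 133 (2.68%) of 4967 genes, in Hoxa2 cells 31 (0.624%) and 134 (2.70%) of 4970, and in Ebf-low cells 54 (1.09%) and 138 (2.79%) of 4942. Most of the largest ratios were of ribosomal, histone and unannotated transcripts and took like values in other cells. Rpl29 was at 101 in control and 532 in null gate cells and at 113 and 539 in Barx1 cells. Gm42418, which overlaps ribosomal RNA, was at 402 and 1269 against 405 and 1238 in Barx1 cells. AY036118 and Lars2, grouped with it in a list of genes with reads like ribosomal RNA, were at 32.1 and 99.9 and at 21.3 and 40.3 in gate cells. Hist1h2ap, a histone transcript, was at 1237 and 539 in gate cells against 1102 and 488 in Barx1 cells. Its ratio was the lowest among genes at 50 CPM or more, with rule, haemoglobin and mitochondrial genes and a list of 10 sex-linked genes left out. That list did not hold every gene of the X chromosome, and the pools differed in sex mix. Tpm3-rs7, AA465934, Tmem14c, Rpl13a, Rpl12 and Dusp9 were, with 3 Id genes, the other high ones of 12 named at that level, and Hist1h4d, Polr2l, Gm10076, Hist1h2ae, Rps28, Dpysl2, Hist1h3c, Gm2000, Epb41l4aos and Atp5md were among the 12 low ones. The differing kit versions cannot be told apart from genotype for these genes.

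The BMP response was the list with the highest median among those with 5 or more genes at 20 CPM. BMP ligands act through SMAD factors, and Id1, Id2 and Id3 (inhibitors of helix-loop-helix factors), Msx1, Msx2, Smad6, Smad7 and Bambi are known direct or early targets, the last 3 as feedback inhibitors. Of 14 list genes, 7 reached 20 CPM. Of these, 4 were at least 1.5-fold higher in null (against 0.704% of all genes) and none lower, and the median log2 ratio was 0.65 against 0.02 over all genes. Msx2, one of the 4, and Smad7 reached 20 CPM in the null library alone, where they were higher, so the limit itself admitted them by their difference. With the limit set on the mean of both libraries, the count was also 4 of 7 (against 0.582% of all genes). Id1 (chr2:152736251-152737410) was at 639 in control (95% Poisson interval 628 to 650) and 1006 in null (993 to 1018), a log2 ratio of 0.65 (0.62 to 0.69). Id2 (chr12:25093799-25097140) was at 163 (157 to 168) and 281 (275 to 288), a log2 ratio of 0.79 (0.73 to 0.85). Id3 (chr4:136143497-136145755) was at 642 (631 to 653) and 1061 (1048 to 1074), a log2 ratio of 0.73 (0.70 to 0.76). Msx2, a homeodomain target (chr13:53466884-53473074), was at 15 (13.4 to 16.8) and 31.5 (29.3 to 33.8), a log2 ratio of 1.05 (0.88 to 1.27). For each of these the null interval lay wholly above the control interval. These intervals cover counting error only, so their separation does not tell genotype from kit or pool. Msx1 (41.9 and 51.8), Bambi (32.3 and 43.9) and Smad7 (17.9 and 25.4) had ratios of 0.30, 0.44 and 0.49, under the 1.5-fold line.

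The same 4 genes were also higher in null in the other mesenchymal groups, and the Id ratios were larger in gate cells. In Barx1 cells Id2 was at 125 and 196 (log2 ratio 0.65), Id3 at 673 and 912 (0.44), Id1 at 691 and 947 (0.45) and Msx2 at 74.3 and 111 (0.58). In Hoxa2 cells the ratios were 0.71, 0.52, 0.53 and 0.68. Gate cells of the control library were the lowest of the 4 groups in Msx2 and those of the null library too, at 15 and 31.5, and the null value was below the 64.8 of control Hoxa2 cells. Whether the ratio differs between groups was not tested. Among lower genes of the list, Dkk1, a Wnt antagonist, had 46 UMIs in control and 138 in null gate cells (2.25 and 5.67 CPM, log2 ratio 1.17, 0.84 to 1.85), Atoh8 142 and 265, Smad6 70 and 114, Nog 38 and 28 and Grem1 13 and 6. The ligands Bmp2, Bmp4, Bmp5 and Bmp7 were each under 2 CPM in gate cells, with Bmp4 at 39 and 20 UMIs. The receptors Bmpr1a (28.2 and 31.8) and Acvr2b (72.7 and 84.7) were not past 1.5-fold.

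**Figure D2:**
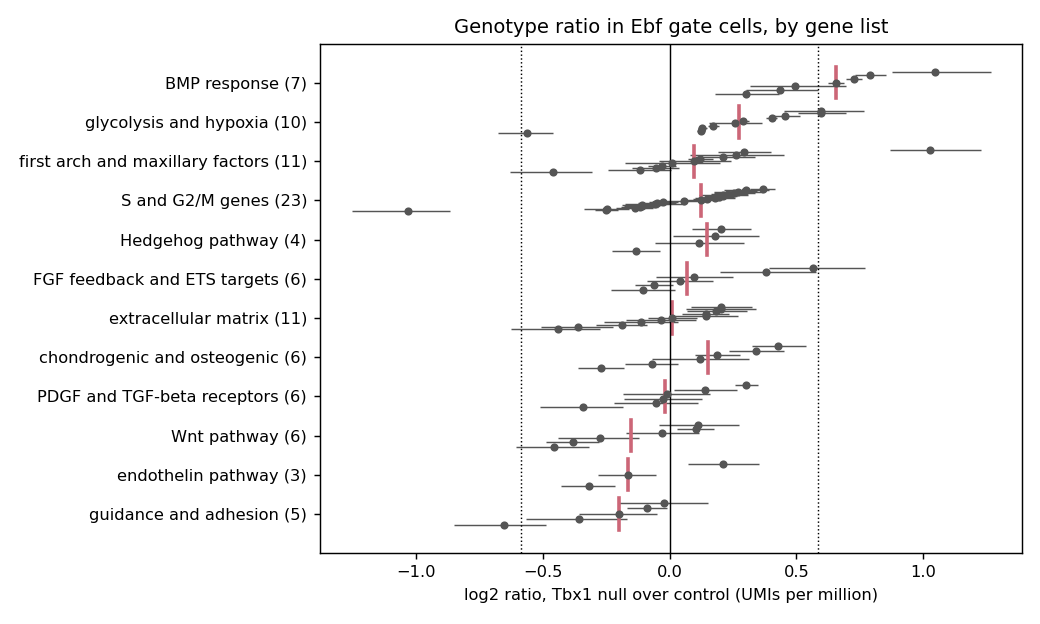
Log2 ratio of Tbx1 null over control in Ebf gate cells for each gene at 20 CPM or more in 12 gene lists (number of genes in brackets), with 95% counting intervals (bars), the median of the list (red) and lines at 1.5-fold (dotted). The BMP response list has a median of 0.65, and the other lists have medians between -0.20 and 0.27.

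The 250 bases before the RefSeq start of these genes (GRCm38.p6, the assembly behind mm10) show what lies at the promoters of Id2, Id3 and Msx2, which were higher in null together, and of Lhx8. They were searched for GGCGCC, a GC-rich sequence that SMAD proteins bind, which is its own reverse complement, so that 1 search covers both strands. They were also searched for the EBF palindrome. Matches are in capitals.
Id2, chr12:25096093-25096342, minus strand: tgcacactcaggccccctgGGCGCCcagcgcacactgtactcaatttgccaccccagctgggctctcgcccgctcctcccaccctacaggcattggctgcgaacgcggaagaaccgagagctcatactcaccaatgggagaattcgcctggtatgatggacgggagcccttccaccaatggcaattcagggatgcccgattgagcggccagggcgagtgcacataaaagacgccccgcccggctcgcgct
Id3, chr4:136143572-136143821, plus strand: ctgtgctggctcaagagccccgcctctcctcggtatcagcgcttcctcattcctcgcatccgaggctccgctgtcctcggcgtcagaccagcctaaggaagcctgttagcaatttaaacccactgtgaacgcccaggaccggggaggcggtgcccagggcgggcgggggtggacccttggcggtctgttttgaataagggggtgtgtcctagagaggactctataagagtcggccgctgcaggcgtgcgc
Msx2, chr13:53472781-53473030, minus strand: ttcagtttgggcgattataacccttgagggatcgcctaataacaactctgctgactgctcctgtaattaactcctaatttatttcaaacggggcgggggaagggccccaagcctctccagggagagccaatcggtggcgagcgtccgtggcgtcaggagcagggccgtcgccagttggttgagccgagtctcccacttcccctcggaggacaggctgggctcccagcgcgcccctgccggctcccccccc
Lhx8, chr3:154330561-154330810, minus strand: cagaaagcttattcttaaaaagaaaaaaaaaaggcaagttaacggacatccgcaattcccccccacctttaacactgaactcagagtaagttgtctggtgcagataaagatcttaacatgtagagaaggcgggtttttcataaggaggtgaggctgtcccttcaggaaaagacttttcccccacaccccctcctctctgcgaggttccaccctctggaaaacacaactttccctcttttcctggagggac
GGCGCC occurred once, in Id2, with its first base 231 bases before the start, and was in 9.59% of the 32851 promoter stretches of this length. It occurred in none of the other 3, nor in the stretches of Hapln1 or Ebf1. The EBF palindrome was in none of these stretches and in 0.779% of all of them. Id1 was not matched in the promoter table. GC content was 62.8% for Id2 and Id3, 61.6% for Msx2 and 46.0% for Lhx8. Absence of these letters in 250 bases says nothing of the factors elsewhere, and a match is not shown to be a site.

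Lhx8 was the 1 gene of 11 on the first arch and maxillary list at least 1.5-fold higher in null gate cells (against 0.704% of all genes), and none was lower (2.27%). Lhx8 reached the 20 CPM limit in the null library alone, so its difference decided its entry, although it also passed a limit on the mean of both libraries. It was at 17.3 CPM in control (15.6 to 19.2; 355 UMIs) and 35.8 in null (33.5 to 38.3; 872 UMIs), a 2.04-fold difference (log2 ratio 1.03, 0.87 to 1.23). After thinning each cell to 5000 UMIs, 55 of 846 control cells had an Lhx8 UMI (6.5%, 4.93 to 8.38) and 163 of 1056 null cells (15.4%, 13.3 to 17.8). In neural-like cells (at least 2 Sox2 UMIs, none of Twist1, Prrx1 or Prrx2), which should lack it, the share was 0.0878% and 0.34%, at median depths of 16187 and 14870 UMIs before thinning. Without thinning, 27.4% of control and 42.1% of null gate cells had an Lhx8 UMI. No cell held more than 6 of the control or 7 of the null UMIs. The null library was also higher in the other groups, at 12.5 and 33.0 in Barx1 cells, 5.45 and 12.1 in Hoxa2 cells and 10.8 and 19 in Ebf-low cells. Elsewhere on the list, Six4 (21.3 and 21.5), Nr2f1 (275 and 299), Meis2 (229 and 224), Tfap2a (35.3 and 37.8) and Tfap2b (19.9 and 24.0) were within 1.5-fold, and Foxd2 was at 32.8 and 23.7 (log2 ratio -0.46). Pax9, of the tooth and palate fields, had 11 and 31 UMIs.

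Dlx5 and Dlx6, though low, were higher in null gate cells. Dlx5 was at 5.86 in control (4.86 to 7.01; 120 UMIs) and 14.3 in null (12.9 to 15.9; 349 UMIs), a log2 ratio of 1.22 (0.99 to 1.60), and Dlx6 at 3.18 (65 UMIs) and 6.25 (152 UMIs), a log2 ratio of 0.88 (0.55 to 1.42). Thinned to 5000 UMIs, 2.25% of control cells (1.36 to 3.49) and 5.40% of null cells (4.11 to 6.94) had a Dlx5 UMI, against 0.351% and 0.113% of neural-like cells. In Ebf-low cells, which differ from the gate in the Ebf limit alone, both were also higher in null, Dlx5 at 40.0 and 62.8 (log2 ratio 0.64, 0.50 to 0.80) and Dlx6 at 21.8 and 31.2 (0.51). In Barx1 cells Dlx5 was at 152 and 145 (-0.07) and in Hoxa2 cells at 85.7 and 89.5 (0.06), and over all other kept cells its ratio was 0.36. Whether these ratios differ was not tested. Cells with 1 Barx1 UMI made up 12.7% of control and 17.7% of null members. With those left out, Dlx5 was at 4.62 and 12.6, a log2 ratio of 1.36, and Lhx8 at 16.5 and 32.7, a log2 ratio of 0.97. Dlx1 and Dlx2, the 2 Dlx genes past 20 CPM, had log2 ratios of 0.22 and 0.08. Gata3, a distal arch factor, had 31 UMIs in 22 control and 91 in 68 null gate cells. Hand2 had 72 and 117 UMIs and Barx1, limited by the rule, 108 and 189.

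**Figure D3:**
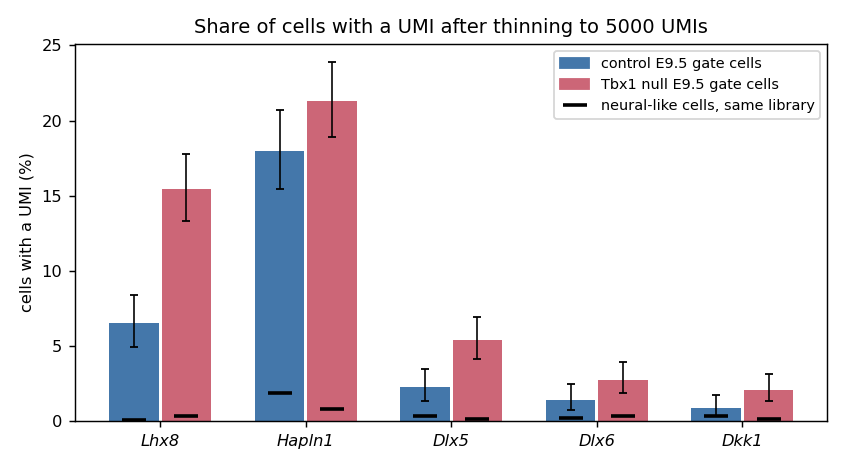
Percent of Ebf gate cells with at least 1 UMI of a gene after thinning each cell to 5000 UMIs, in the control (blue; 846 cells) and Tbx1 null (red; 1056 cells) library, with 95% Clopper-Pearson intervals; black dashes mark neural-like cells of the same library. Lhx8 is at 6.5% and 15.4% and Dlx5 at 2.25% and 5.40%, with intervals apart for both, while those of Hapln1, at 18.0% and 21.3%, overlap.

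Other signalling lists had no gene past the 1.5-fold line, which 2.98% of all genes passed, so counts of 0 in lists this short are near the background. FGF feedback genes and ETS targets had 0 of 6 past the line in either direction (median log2 ratio 0.07): Dusp6, an ERK phosphatase, was at 43.1 and 44.2, Myc at 47.4 and 44.1, Ccnd1 at 135 and 129 and Il17rd, a receptor that damps FGF signals, at 17.6 and 26.4. Spry1 was at 18.9 and 24.7 (log2 ratio 0.38) and Spry2, under the level limit, at 19.8 and 13.2 (-0.56), so the Sprouty genes did not share a direction. Fgfr1 was at 28.8 and 34.4. The Wnt list had 0 of 6 past the line (median -0.15), with Sfrp1 at 77.5 and 59.4 and Sfrp2 at 41.1 and 29.9, and Axin2, a feedback target, at 10.4 and 6.5. Hedgehog genes had 0 of 4 (median 0.15), with Ptch1 at 23.2 and 25.2. Retinoic acid genes had 0 of 3 (median -0.18), with Crabp1 at 993 and 835. Of the endothelin list, 0 of 3 passed (median -0.17): Mef2c, an effector of endothelin signalling, was at 71.3 and 57.1, and Ednra, the endothelin receptor of crest, under the level limit, at 12.9 and 9.0. Of the PDGF, TGF-beta and IGF list 0 of 6 passed (median -0.02), and Pdgfra was at 27.8 and 26.7.

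Notch2 was below the level limit yet had one of the lower ratios, at 12.5 CPM in control (11 to 14.1; 256 UMIs) and 5.96 in null (5.03 to 7.01; 145 UMIs), a log2 ratio of -1.01 (-1.37 to -0.77). In Barx1 cells Notch2 was at 17.4 and 8.45 and in Hoxa2 cells at 15.7 and 5.66. Hes1, a Notch target, was at 47.7 and 34.8 and Hey1 at 20.5 and 19.6, both within 1.5-fold. Cxcl12, the ligand of Cxcr4, was the 1 of 5 guidance and adhesion genes past the line (against 2.27% of all genes lower), at 28.8 in control (26.5 to 31.2) and 18.1 in null (16.4 to 19.9), a log2 ratio of -0.66 (-0.85 to -0.49), and it was at 23.0 and 15.6 in Barx1 cells. It reached 20 CPM in control alone, where it was higher, and with the limit on the mean of both libraries it was 1 of 4 (against 2.04% of all genes). With cells thinned to 10000 UMIs before the rule was applied, its log2 ratio was -0.38, short of the line. Cxcr4 had 32 and 18 UMIs. Cdh11 was at 118 and 111 and Cdh6 at 34.0 and 29.5. Sema3a, a repellent ligand, was at 10.5 and 16.2 (log2 ratio 0.61), and Epha3 at 2.54 and 5.47.

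**Figure D4:**
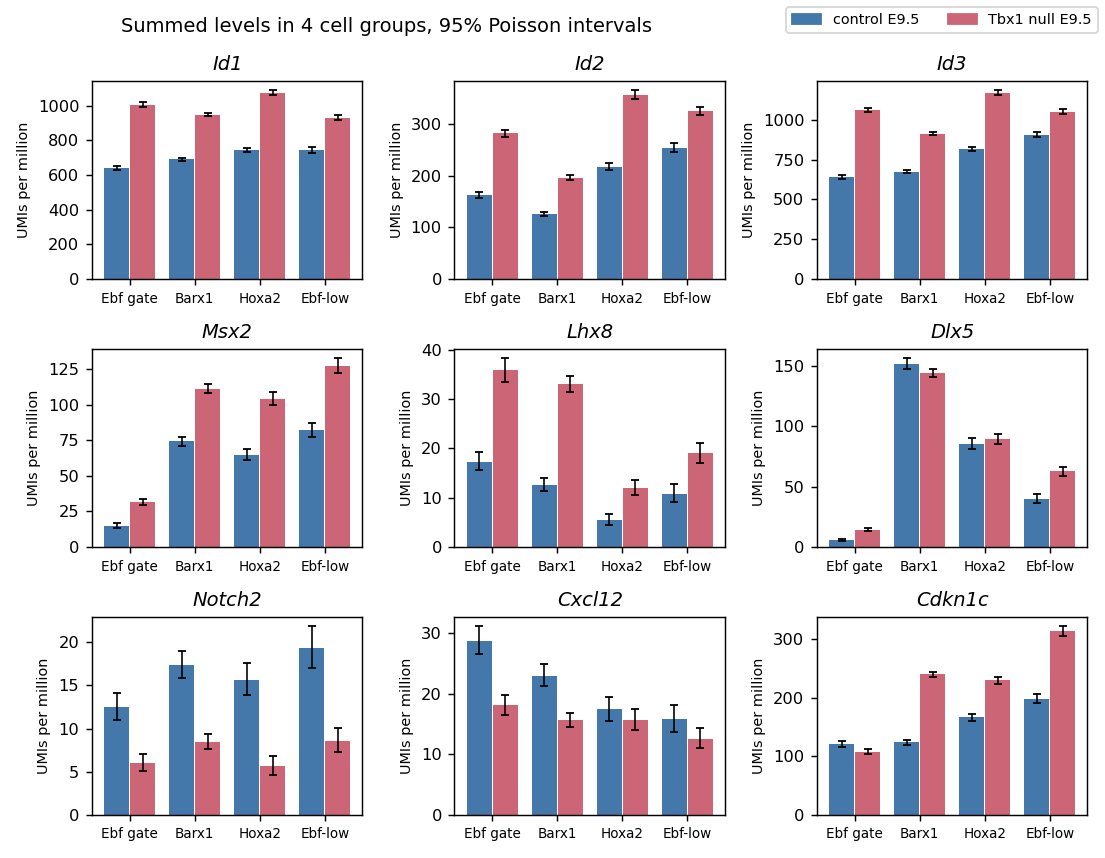
CPM (linear axes from 0) of 9 genes in Ebf gate, Barx1, Hoxa2 and Ebf-low cells of the control (blue) and Tbx1 null (red) library, with 95% Poisson intervals. Id1, Id2, Id3, Msx2 and Lhx8 are higher and Notch2 lower in null in each group; Dlx5 is higher in null in gate cells (5.86 and 14.3) and Ebf-low cells (40.0 and 62.8) but not in Barx1 cells (152 and 145); the control bar of Cdkn1c in gate cells includes 1 cell with 718 of its 2481 UMIs.

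Proliferation genes were within 1.5-fold with 1 exception. All 23 genes of the S and G2/M list passed 20 CPM, 0 were past 1.5-fold higher and 1 lower, and the median log2 ratio was 0.12. The lower one was Ccne2, a cyclin of the G1 to S transition, at 29.7 and 14.2 (log2 ratio -1.03, -1.25 to -0.87), against 33.4 and 16.9 in Barx1 cells. Ccne2 too reached 20 CPM in control alone. Mki67 was at 111 and 125 and Top2a at 233 and 269. Of the glycolysis and hypoxia list, 2 of 10 were past the line upward (against 0.704% of all genes) and 0 downward (2.27%), with 9 of 10 ratios above 0 (median 0.27, and 0.12 for the same genes in Barx1 cells). Pdk1, a kinase that holds back pyruvate oxidation, was at 25.0 and 38.1, and Bnip3, a hypoxia-induced mitophagy receptor, at 70.5 and 107. Pgk1, which lies on the X chromosome, was at 1282 and 1694 in pools that differed in sex mix. Pfkl was at 179 and 245, whereas Hk2, a hexokinase, was at 75.1 and 50.7. Pdk1 and Bnip3 were close to the line, with log2 ratios of 0.60 each, and both fell short of it under some alternatives (as low as 0.52 and 0.56). Genes of dissociation stress had 0 of 6 past the line (median 0.17), and median mitochondrial UMIs were 1.98% in control and 2.41% in null gate cells. Their part in these ratios was not tested.

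Matrix and skeletal genes above the level limit were within 1.5-fold between genotypes. Of 11 matrix genes at 20 CPM none passed 1.5-fold (median 0.01): Vcan, the proteoglycan versican, was at 80.4 and 88.8, Fbn2 at 49.5 and 56.3, Col1a2 at 48.4 and 55.7 and Col4a2 at 27.9 and 20.4. Of 6 chondrogenic and osteogenic genes none passed (median 0.15). Sox9, the early cartilage factor, was at 97.1 (92.9 to 102) and 80.5 (76.9 to 84.1), and Snai1 at 56.8 and 76.7. Runx2, the osteoblast factor, had 2 and 3 UMIs and Acan, the cartilage aggrecan, 2 and 1, so these cells held collagen and Sox9 transcripts without those later markers at this depth. Foxc1, of cranial mesenchyme, was at 31.5 and 37.6. Prrx2, which the rule reads, was at 249 and 389, past the line, and Prrx1 at 192 and 228.

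Members differed among themselves with the number of Ebf1 and Ebf2 UMIs. The rule reads the same UMIs, so the tiers are given as a description. The 210 control and 283 null cells with 2 UMIs had Lhx8 at 13.6 and 31.0, the 327 and 410 cells with 3 or 4 at 16.8 and 32.9, and the 311 and 372 cells with 5 or more at 20.1 and 41.3. Dlx5 went the other way, from 10.3 and 21.9 over 6.66 and 14.2 to 2.50 and 10.3. Msx2 was highest with 2 UMIs, at 28.8 and 47.8, and lower with 3 or 4 (12.5 and 25.5) and with 5 or more (9.37 and 27.9). Sox9 was at 85.3 and 69.7, 95.6 and 80.2, and 106 and 86.7. In each tier Lhx8, Dlx5 and Msx2 were higher in null. Cells with more Ebf UMIs were also deeper, with a median of 22943, 23605 and 24897 UMIs in control and 19846, 22450 and 25061 in null, and the part of depth in these orders was not tested.

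**Figure D5:**
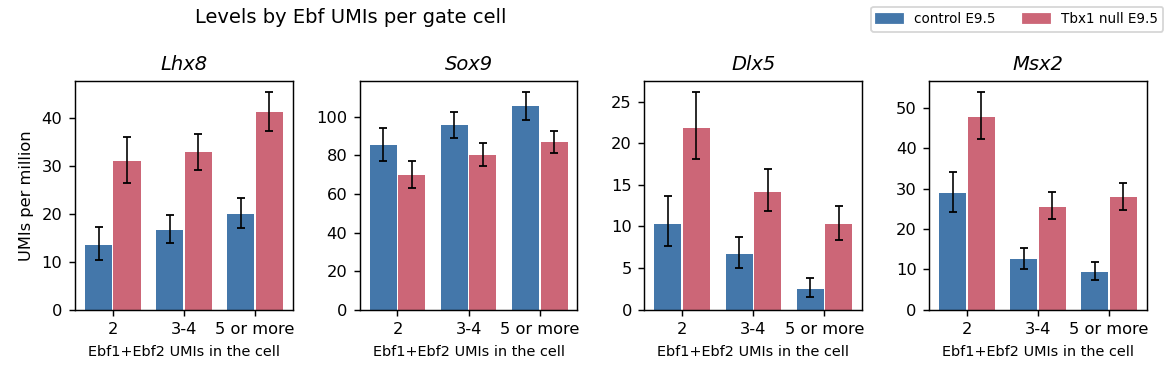
CPM (linear axes from 0) of Lhx8, Sox9, Dlx5 and Msx2 in Ebf gate cells with 2, 3 to 4, or 5 or more Ebf1 and Ebf2 UMIs, in the control (blue) and Tbx1 null (red) library, with 95% Poisson intervals. Lhx8 goes from 13.6 and 31.0 up to 20.1 and 41.3 across the tiers, and Dlx5 from 10.3 and 21.9 down to 2.50 and 10.3.

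Few genes separated gate cells with an Lhx8 UMI after thinning from those without one. Before thinning, 27.4% of control and 42.1% of null gate cells had an Lhx8 UMI. The cells counted as without Lhx8 thus include some in which it was measured. For that reason the small counts do not show that cells with and without Lhx8 are alike. Of 2602 genes at 50 CPM or more, all cells thinned to 5000 UMIs, 3 (0.115%) were at least 1.5-fold higher in both libraries in the 55 control and 163 null cells with Lhx8, and 6 (0.231%) lower. Tubb2b, a tubulin of neurons and crest, was at 3.64 with Lhx8 and 57.6 without in control, the first on 1 UMI, and at 18.4 (15 UMIs) and 56.7 in null (log2 ratio -1.60, -2.48 to -0.87). Map1b, a microtubule-associated protein, was at 7.27 and 57.1 and at 24.5 and 64.5, on 2 and 20 UMIs in the cells with Lhx8. In control the intervals of these ratios run from -9.30 to -1.49 for Tubb2b and from -6.03 to -1.10 for Map1b. Fabp7, a fatty acid binding protein of glia and early crest, was at 10.9 (3 UMIs) and 47.0 and at 27.0 (22 UMIs) and 60.9. Fabp7 was under 50 CPM in control and is not among the 6, of which Kmt2e, Tmsb4x, Vim and H19 were the others. The high ones were Lhx8 itself, by which the cells were split, Efna4 and Kctd5, on 16 and 17 UMIs in the control cells with Lhx8. Dlx1 was at 94.5 with and 50.6 without Lhx8 in control, and at 68.7 and 56.7 in null. Pou3f3 was at 7.27 and 17.2, and at 8.59 and 20.2, on 2 and 7 UMIs in the cells with Lhx8. A Dlx5 or Dlx6 UMI was seen in 26 control and 73 null cells. In those, Hand2 was at 61.5 against 0.488 in control and at 35.6 against 3.26 in null, on 8 and 13 UMIs. Of 2601 genes, 21 (0.807%) were higher, Dlx5 and Dlx6 among them, and 15 (0.577%) lower, led beyond those genes by H19, Mycn and Pim1 on the high side and Eno3 and Tubb2b on the low side, and 26 cells leave these values imprecise.

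Single cells decided a few sums. One control gate cell held 718 of the 2481 Cdkn1c UMIs of the gate (28.9%), all 35 Cdh5 UMIs and 100 of 113 Stmn2 UMIs, with 8 Ebf1 and 4 Twist1 UMIs among its 69075. Cdkn1c, a cyclin-dependent kinase inhibitor, was at 121 and 108 with every cell (log2 ratio -0.17), and at 86.1 and 105 (log2 ratio 0.29) without the top cell of each library. A Cdkn1c UMI was seen in 28.6% of control and 29.6% of null cells at 5000 UMIs. Another cell held 117 of the 148 Acta2 UMIs in control. Leaving out the top cell of each gene changed the counts past 1.5-fold to 36 higher and 111 lower.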

How the data were processed

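Pharyngeal cells of 7 libraries were profiled with 10x 3′ chemistry. The deposited matrices hold raw UMI counts per gene and barcode, made by the authors with Cell Ranger 6.0.1 on mm10 (submitters' processing notes). The 2 E9.5 libraries were compared, with 1 library per genotype, so no test was run and pairing of replicates did not arise. Barcodes under 1000 detected genes or over 10% mitochondrial UMIs were dropped. Doublets were scored with Scrublet (scanpy 1.11.5), at 0.8% of barcodes per 1000 barcodes, and left in except in an alternative; 7.31% of control and 7.32% of null gate cells were marked. UMIs were summed per group and library and scaled to CPM (per 1000000 UMIs) with TMM factors (edgeR 4.0.16, R 4.3.3). No TMM factors were used for the splits of thinned gate cells by Lhx8 and by Dlx5 or Dlx6. Ratios use a pseudocount of 0.5 CPM, and their intervals are of the ratio without it. At low levels a printed ratio is therefore nearer 0 than the ratio its interval belongs to. A gene is past the line when it differs at least 1.5-fold and reaches 20 CPM in either library. Intervals are 95% exact Poisson (levels), Clopper-Pearson (shares) and conditional binomial (ratios), in Python 3.11.15 with scipy 1.17.1; UMIs are molecules, and the intervals cover counting error only. For shares, cells were thinned to 5000 UMIs. The scripts were tested on simulated counts. Genes named are those of the rule, the gene lists, the 12 highest and 12 lowest genotype ratios, the 15 highest over other cells and the 10 highest and 10 lowest over Barx1 cells, each at 50 CPM or more. The members, lists and comparisons were chosen with earlier results of these data known. Coordinates are from an mm10 annotation that held 32158 of the 32285 gene IDs, and promoters are from RefSeq GRCm38.p6. Alternatives were the cell filter, doublets, Ebf limit, depth, scaling, pseudocount, level limit and weight of cells; those with 0 Barx1 UMIs, without the top cell of each gene and with the level limit on the mean of both libraries were chosen after seeing the data. Some genes that these rules would name are not reported here.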

Additional observations from a re-analysis of the deposited data

Results flagged for a closer look

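Cdkn1c, which encodes a cyclin-dependent kinase inhibitor, had opposite signs in neighbouring groups of the same libraries. Null over control was -0.17 on the log2 scale in Ebf gate cells (121 and 108 CPM) and 0.96 in Barx1 cells (124 and 240). The difference between the groups was not tested. One control gate cell held 718 of 2481 Cdkn1c UMIs. Without the top cell of each library the log2 ratio was 0.29 in gate cells and 0.97 in Barx1 cells, so the opposite sign rested on that cell.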

How the results depend on the processing

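The share of kept cells in the gate moved with the rule. It was 12.8% in control and 13.2% in null with at least 1 Ebf1 or Ebf2 UMI, and 7.41% and 7.39% with at least 3. When cells were first thinned to 10000 UMIs it was 6.94% and 8.36%, and the 95% intervals of the libraries no longer overlap. That gate held partly different cells, as 419 of its 571 control and 532 of its 797 null cells were members at full depth. The counts past 1.5-fold were 110 higher and 206 lower with a level limit of 5 CPM, and 18 and 74 with a limit of 50. Under the other alternatives they were 27 to 38 higher and 97 to 130 lower. All 34 named genes past 1.5-fold kept their sign under the alternatives run, and 28 stayed past 1.5-fold under each. The exceptions were AA465934, Bnip3, Cxcl12 (log2 ratio as near 0 as -0.38), Dusp9, Pdk1 and Tmem14c. Lhx8 ranged from 0.87 to 1.04 and Msx2 from 0.85 to 1.33. No paired analysis was possible because each genotype had 1 library at E9.5. Genotype, kit version and pool cannot be told apart, and genes of a few CPM are limited by counting.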

Other observations

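The same rule found 38 cells (0.647% of kept cells) at E8.5. At E10.5 shares were lower than at E9.5 in each library. The first arch had been removed before dissociation at E10.5, and depth was lower too. Medians were 15527 to 20155 UMIs per kept cell, against 23071 and 21176 at E9.5. The parts of dissection, stage and depth were not tested. The E10.5 controls held 137 (1.86%) and 477 (4.65%) such cells. Those labelled Tbx1 null held 93 (1.05%) and 44 (0.634%). The rule was thus also met in tissue dissected without the first arch. Besides Cdkn1c, 5 genes at 20 CPM or more had at least 10% of their control UMIs in 1 gate cell. These were Fn1 (124 of 800), H19 (195 of 1672), Igf2 (85 of 636), Sparc (79 of 542) and Crip2 (65 of 523).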
